A study of Mus musculus with 24 samples.

Results

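The genes described here encode the receptors and ligands with which leukocytes hold on to vessel walls and tissue. They are the integrin subunits Itgal, Itgb2, Itga4, Itgb7 and Itgae, the selectin ligand Selplg, and the adhesion molecules Icam1, Icam2 and Vcam1. These 9 genes were picked by symbol from the 24421 gene symbols of the deposited count tables, and all 9 passed the filter on low counts in every comparison. They were measured by total RNA-seq in adipose tissue of C57BL/6 mice aged 2 months, with no treatment named. WT mice were compared with mice carrying STAT5B-Y665F or STAT5B-Y665H, in which the same tyrosine of STAT5B, a transcription factor downstream of cytokine and growth hormone receptors, is replaced by phenylalanine (Y665F) or histidine (Y665H). There were 4 male and 4 female libraries of each genotype, which gives 6 groups and 24 libraries. The fat depot, the number of mutant alleles and the relation of libraries to animals are not given in the sources used here, so p-values measure only the spread between libraries, which may be technical.

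Itgal had already been singled out for its difference between Y665F and WT females when the 9 genes were put together. For that comparison, fold changes of members are given as a description, with no p, and nothing is read from the members' counts in it. Statements that Y665F and WT females did not overlap are likewise description. Of all 15642 tested genes, 19.9% were higher in Y665F than in WT females without overlap. The libraries of that comparison also serve in 2 others: Y665H against WT females and Y665H against Y665F females.

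Integrins are pairs of an alpha and a beta subunit that sit inactive on circulating leukocytes until signals from inside the cell open them. The alpha L and beta 2 subunits (Itgal, Itgb2) form LFA-1, which binds ICAM-1 and ICAM-2. The alpha 4 subunit (Itga4) pairs with beta 1 or beta 7 (Itgb7) and binds VCAM-1, fibronectin or MAdCAM-1, whereas alpha E (Itgae, also called CD103) pairs with beta 7 and binds E-cadherin on epithelium. PSGL-1 (Selplg), once decorated with sugars and sulfate, lets leukocytes roll on P-selectin. In adipose tissue these receptors are carried by macrophages, dendritic cells and lymphocytes that reside in or enter the fat, and the ligands largely by endothelium and stroma.

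Gene counts ran from 21.0 to 41.3 M per library (median 34.6 M, where M is 1e6), and levels are expressed per 1e6 gene counts of the library (CPM). All 10 adipocyte markers reached a mean of 1 CPM in all 6 groups. Of the 9 listed genes of lymph node stroma, 5 in each female group and 6 in each male group reached it, while Ccl21a was at 0 throughout. Their sum ran from 20.0 to 86.6 CPM per library, and the part of lymph node tissue was not tested. Several libraries held transcripts of other tissue. The summed skeletal muscle markers ran from 89.2 to 1012 CPM in WT, from 32.9 to 176 CPM in Y665F and from 24.5 to 1710 CPM in Y665H females. In males they reached at most 238 CPM. The summed epididymis markers reached 8832, 2432 and 869 CPM in WT males 2, 3 and 4 against 0.0576 CPM in WT male 1, 1108 CPM in Y665F male 4 and 1177 CPM in Y665H male 3. WT male 2 also had the lowest adipocyte sum of all libraries, and Y665F female 3 had an epithelial sum of 1459 CPM against at most 282 CPM in the other female libraries. The part of this tissue in the results was not tested, and results are given with and without these libraries where they differ.

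In the GENCODE vM21 annotation of GRCm38 (mm10), the receptor genes are Itgal at chr7:127296260-127335138, Itgb2 at chr10:77530252-77565708, Itga4 at chr2:79255426-79333123 and Itgae at chr11:73090583-73147446 on the plus strand. Itgb7 at chr15:102215995-102231944 and Selplg at chr5:113818536-113832644 are on the minus strand. The ligand genes are Icam1 at chr9:21015985-21028817 on the plus strand, Icam2 at chr11:106377656-106388075 and Vcam1 at chr3:116109949-116129688 on the minus strand. Itga4 overlaps Cerkl, Itgae contains Haspin, and Icam1 and Vcam1 overlap antisense genes, all on the opposite strand. The strand setting of the counting is not given in the sources used here, so reads in these overlaps cannot be assigned to 1 gene with certainty. Per kilobase of annotated exon in WT females, the mean level fell in the order Itgb2 (11.7 CPM per kb), Icam1 (5.77), Icam2 (5.20), Vcam1 (3.86), Itgb7 (3.73), Selplg (3.28), Itga4 (1.53), Itgal (1.43) and Itgae (1.23).

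Promoter sequences are shown for the 3 members found in the RefSeq promoter table, which were among the genes that were lower in Y665H than in Y665F females. The windows are the 250 bases before the RefSeq start on GRCm38.p6, written 5′ to 3′ along the gene's strand: chr9:21015690-21015939 (plus) for Icam1, chr2:79255176-79255425 (plus) for Itga4 and chr15:102231936-102232185 (minus) for Itgb7. Capitals mark matches on either strand to the STAT motif TTCNNNGAA, the kappaB motif GGAANTTCC or the SP1 motif GGGCGG.
Icam1: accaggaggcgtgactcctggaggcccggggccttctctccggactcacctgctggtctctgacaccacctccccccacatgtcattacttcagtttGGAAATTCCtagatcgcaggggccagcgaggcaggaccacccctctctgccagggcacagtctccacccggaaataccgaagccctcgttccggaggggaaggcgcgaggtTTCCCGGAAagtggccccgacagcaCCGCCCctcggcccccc
Itga4: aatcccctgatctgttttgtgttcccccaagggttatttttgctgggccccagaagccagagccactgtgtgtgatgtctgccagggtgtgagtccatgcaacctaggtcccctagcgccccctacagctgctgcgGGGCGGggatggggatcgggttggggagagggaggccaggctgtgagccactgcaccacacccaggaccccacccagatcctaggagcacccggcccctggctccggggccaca
Itgb7: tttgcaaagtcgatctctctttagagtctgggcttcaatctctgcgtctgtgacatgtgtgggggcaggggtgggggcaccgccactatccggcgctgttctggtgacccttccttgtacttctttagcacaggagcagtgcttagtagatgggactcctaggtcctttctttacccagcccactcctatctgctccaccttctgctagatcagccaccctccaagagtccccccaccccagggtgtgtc
The Icam1 window holds a kappaB match whose first base is at -153, a STAT match at -42 and an SP1 match on the other strand at -17, counted from the start. The Itga4 window holds an SP1 match at -114 and, not capitalised, a match to the RUNX motif TGTGGT at -60 on the other strand. The Itgb7 window holds none of these or of the PU.1 motif GAGGAA. Among 32851 promoter windows of this length, 7.02% hold the STAT motif, 0.813% the kappaB motif, 32.7% the SP1 motif, 14.0% the RUNX motif and 23.3% the PU.1 motif. A match is a description of the letters only.

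The receptor genes Itgal, Itgb2, Itga4 and Itgb7 had their highest means in the Y665F groups of both sexes and their lowest means in Y665H females. In females, Y665H fell below Y665F for these 4 genes and for Selplg and Icam1. In males, the call threshold was passed only by Itgb7, which was lower in Y665H than in Y665F. Itgae, Icam2 and Vcam1 did not follow this order. In bulk tissue, fewer cells of a type and less RNA per cell cannot be told apart.

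**Figure D1:**
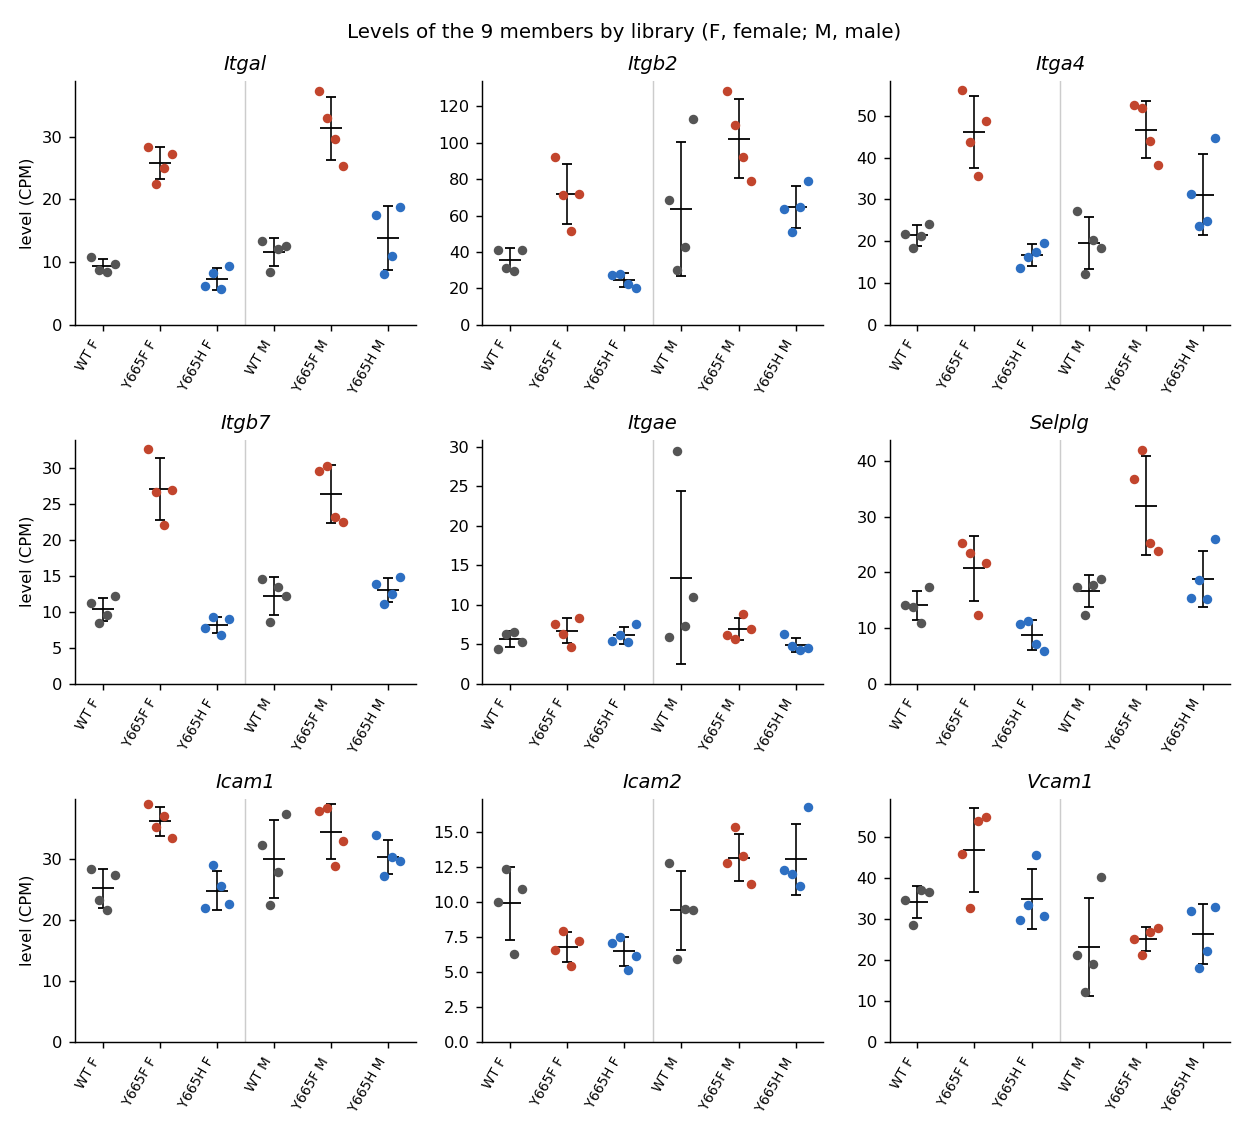
Levels of the 9 genes in CPM by group, with 1 point per library and the bar and error bar at mean ± SD (n = 4). The means of Itgal, Itgb2, Itga4 and Itgb7 are highest in the Y665F groups, while Itgae has a single high library, WT male 2 at 29.5 CPM.

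Itgal, the alpha subunit of LFA-1, was more abundant in every Y665F library than in any WT or Y665H library of either sex. For Y665F against WT females this is a description only, because Itgal was chosen for that difference. In females, Itgal stood at 10.8, 8.71, 8.44 and 9.68 CPM in WT, 28.4, 22.5, 25.1 and 27.3 CPM in Y665F and 6.12, 8.32, 5.66 and 9.31 CPM in Y665H. In males, Itgal stood at 13.3, 8.44, 12.1 and 12.6 CPM in WT, 37.3, 33.0, 29.6 and 25.4 CPM in Y665F and 17.6, 8.17, 11.0 and 18.7 CPM in Y665H. The Y665F values of the 2 sexes overlapped, and so did those of WT and Y665H within each sex. Among Y665H females, library 4 had the highest Itgal level and also a Cd8a level of 6.47 CPM, against 0.413 to 0.576 CPM in the other 3. In females, Itgal fell from 25.8 ± 2.57 to 7.35 ± 1.75 CPM (SD, n = 4) from Y665F to Y665H, for a log2 fold change of -1.67 (SE 0.16, adjusted p 0.00148 in edgeR). The WT mean was 9.40 ± 1.06 CPM, a log2 difference of -0.34 (SE 0.16, adjusted p 0.236 in edgeR) for Y665H against WT. The difference between Y665F and WT females that led to the choice of Itgal was 1.32 (SE 0.11). The same Y665F and WT libraries enter the female comparisons with Y665H, whose p-values are therefore not independent of that choice.

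In males, Itgal averaged 31.3 ± 5.07 CPM in Y665F, 11.6 ± 2.18 CPM in WT and 13.9 ± 5.10 CPM in Y665H (SD, n = 4). The log2 difference of Y665F from WT was 1.48 (SE 0.20, adjusted p 0.0873 in edgeR) and that of Y665H from Y665F was -1.24 (SE 0.25, adjusted p 0.0600 in edgeR). Neither passed the threshold of 0.05, although the groups did not overlap. Both were called by DESeq2 and by a fit over all 24 libraries. The first was also called without WT male 1, with an edgeR adjusted p of 0.0407, in a fit that called 3.43% of all 16632 genes.

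Itgb2 encodes the beta 2 chain shared by LFA-1 and by the myeloid integrins of Itgam and Itgax. In females, Itgb2 stood at 41.1, 31.0, 29.5 and 41.3 CPM in WT, 92.1, 71.4, 51.7 and 71.7 CPM in Y665F and 27.6, 28.1, 22.6 and 20.3 CPM in Y665H. In males, Itgb2 stood at 68.6, 30.3, 42.7 and 113 CPM in WT, 128, 109.9, 92.0 and 78.8 CPM in Y665F and 63.7, 51.0, 64.6 and 79.0 CPM in Y665H. All Y665H females lay below all WT females, and all Y665F females lay above them. WT males spanned the widest range, and their highest library, WT male 4, exceeded 3 of the 4 Y665F males. From Y665F to Y665H females the level fell from 71.7 ± 16.5 to 24.6 ± 3.83 CPM (SD, n = 4), for a log2 fold change of -1.39 (SE 0.20, adjusted p 0.00357 in edgeR). For Y665H against WT females the log2 difference was -0.51 (SE 0.16, adjusted p 0.102 in edgeR), which DESeq2 called. In males, the log2 difference of Y665H from Y665F was -0.72 (SE 0.17, adjusted p 0.0848 in edgeR).

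Itga4, the alpha chain of the receptors for VCAM-1 and MAdCAM-1, had means of 46.1 and 46.7 CPM in Y665F females and males and of 21.4 and 19.5 CPM in WT. In females, Itga4 stood at 21.7, 18.3, 21.3 and 24.2 CPM in WT, 56.1, 43.7, 35.6 and 48.9 CPM in Y665F and 13.5, 16.2, 17.5 and 19.6 CPM in Y665H. In males, Itga4 stood at 27.2, 12.1, 20.3 and 18.5 CPM in WT, 52.6, 52.0, 44.1 and 38.1 CPM in Y665F and 31.3, 23.7, 24.9 and 44.6 CPM in Y665H. No Y665F library overlapped with WT or Y665H in females or with WT in males, whereas Y665H male 4 lay within the Y665F male range. The level fell from 46.1 ± 8.63 CPM in Y665F to 16.7 ± 2.56 CPM in Y665H females (SD, n = 4), for a log2 fold change of -1.33 (SE 0.16, adjusted p 0.00212 in edgeR). In males, the log2 differences were 1.30 (SE 0.27, adjusted p 0.126 in edgeR) for Y665F against WT and 0.66 (SE 0.29, adjusted p 0.402 in edgeR) for Y665H against WT. The log2 difference of Y665H from WT was larger by 1.00 in males than in females (SE 0.32, adjusted p 0.168 in edgeR), which did not pass. This interaction was called without WT male 1, with an edgeR adjusted p of 0.0166, in a fit that called 10.7% of all 17168 genes. The WT males then left all held epididymis transcripts.

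Itgb7 pairs with both Itga4 and Itgae. In females, Itgb7 stood at 11.2, 8.45, 9.51 and 12.1 CPM in WT, 32.6, 26.7, 22.0 and 27.0 CPM in Y665F and 7.70, 9.25, 6.72 and 8.97 CPM in Y665H. In males, Itgb7 stood at 14.6, 8.50, 13.5 and 12.2 CPM in WT, 29.6, 30.3, 23.3 and 22.5 CPM in Y665F and 13.8, 11.0, 12.4 and 14.9 CPM in Y665H. Every Y665F library exceeded every WT and Y665H library, in both sexes. Itgb7 fell from 27.1 ± 4.35 to 8.16 ± 1.18 CPM in females (SD, n = 4), for a log2 fold change of -1.59 (SE 0.16, adjusted p 0.00148 in edgeR). It also fell from 26.4 ± 4.09 to 13.0 ± 1.67 CPM in males, for a log2 fold change of -1.07 (SE 0.14, adjusted p 0.0181 in edgeR). The male call was lost when Y665F male 1, 2 or 3 or Y665H male 1 or 3 was left out, with edgeR adjusted p of 0.0646 to 0.0816, and with the replicate number as a block, with an edgeR adjusted p of 0.109. Against WT males, the log2 difference of Y665F was 1.16 (SE 0.22, adjusted p 0.117 in edgeR).

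Itgae, which marks T cells and dendritic cells lodged in epithelium-bearing tissue, did not share the pattern of its partner Itgb7. In females, Itgae stood at 4.39, 6.27, 6.53 and 5.32 CPM in WT, 7.55, 6.33, 4.67 and 8.32 CPM in Y665F and 5.42, 6.15, 5.22 and 7.58 CPM in Y665H. In males, Itgae stood at 5.90, 29.5, 7.31 and 11.0 CPM in WT, 6.16, 5.63, 8.86 and 6.87 CPM in Y665F and 6.23, 4.78, 4.20 and 4.50 CPM in Y665H. The 6 groups overlapped, apart from 1 high library, WT male 2. The means were 5.63 ± 0.975 CPM in WT, 6.72 ± 1.59 CPM in Y665F and 6.09 ± 1.07 CPM in Y665H females (SD, n = 4), and Y665H against Y665F was not called. The WT male mean was 13.4 ± 11.0 CPM (SD, n = 4) and 8.06 ± 2.61 CPM without WT male 2 (SD, n = 3). The log2 difference of WT males from WT females, 1.09 (SE 0.49, adjusted p 0.155 in edgeR), was 0.35 without that library, and that of Y665H from WT males, -1.42 (SE 0.49, adjusted p 0.402 in edgeR), was -0.67.

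WT male 2 was also the library with the most epididymis transcripts and the most Cdh1, which encodes E-cadherin, the ligand of the alpha E beta 7 integrin, at 231 CPM. In WT male 4, the library with the second highest Itgae level, Gsg2 stood at 89.2 CPM, against at most 10.3 CPM in the other male libraries. Gsg2 is the older symbol of Haspin, a kinase gene of male germ cells that lies inside Itgae on the opposite strand. Epididymis sums of 1108 and 1177 CPM in Y665F male 4 and Y665H male 3 went with Itgae levels of 6.87 and 4.20 CPM. The part of these transcripts in the Itgae level was not tested.

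**Figure D2:**
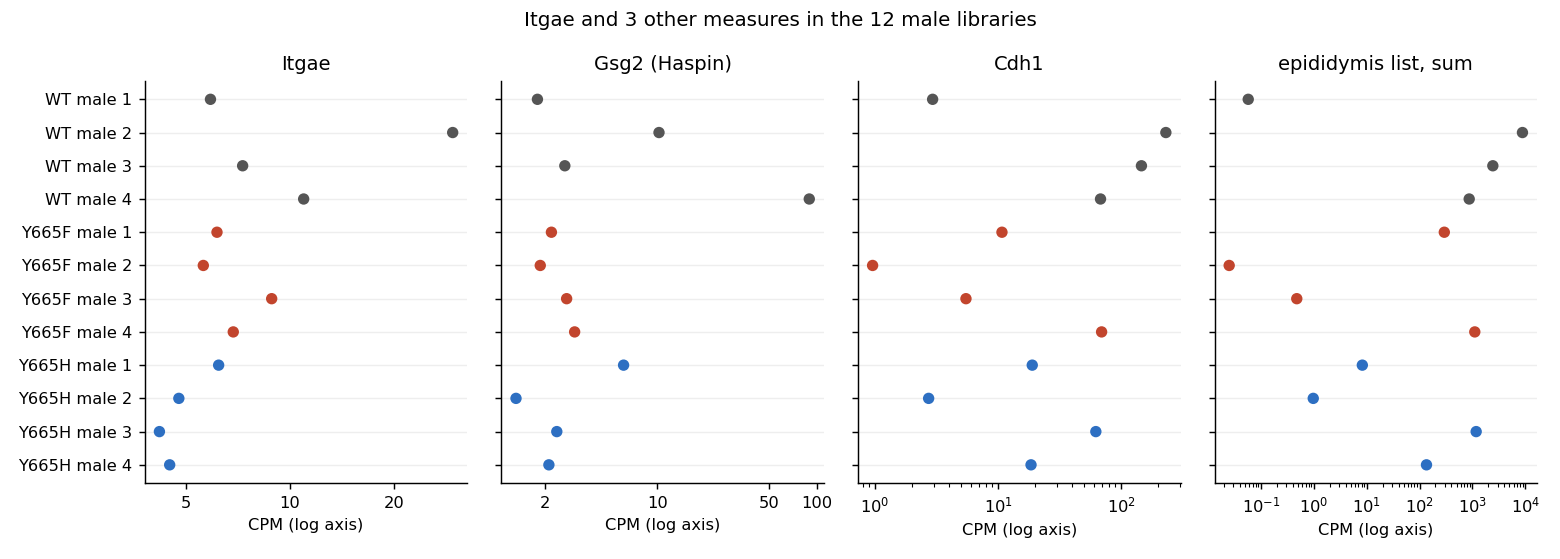
Itgae, Gsg2 (Haspin), Cdh1 and the summed epididymis markers in the 12 male libraries, in CPM on log axes, with 1 point per library. WT male 2 has the highest Itgae, Cdh1 and epididymis values, and WT male 4 the highest Gsg2 value.

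Selplg encodes the leukocyte ligand of P-selectin. In females, Selplg stood at 14.1, 13.7, 10.9 and 17.3 CPM in WT, 25.3, 23.4, 12.3 and 21.6 CPM in Y665F and 10.8, 11.2, 7.03 and 5.88 CPM in Y665H. In males, Selplg stood at 17.4, 12.4, 17.8 and 18.8 CPM in WT, 36.8, 42.0, 25.3 and 23.8 CPM in Y665F and 15.4, 18.6, 15.1 and 26.0 CPM in Y665H. Y665F female 3, at 12.3 CPM, lay within the WT range, and the other Y665F females were above it. All Y665H females lay below all Y665F females. The level fell from 20.7 ± 5.76 to 8.72 ± 2.67 CPM between these groups (SD, n = 4), for a log2 fold change of -1.10 (SE 0.30, adjusted p 0.0385 in edgeR). This call held in 1 of 8 fits with a library left out, the one without Y665F female 3, and the others gave edgeR adjusted p of 0.0523 to 0.0992. Against WT, Selplg differed by -0.66 (SE 0.24, adjusted p 0.138 in edgeR) in Y665H females and by 1.00 (SE 0.24, adjusted p 0.164 in edgeR) in Y665F males.

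Among the ligands, Icam1, the main partner of LFA-1 and a gene induced on endothelium by inflammatory cytokines, stayed between 21.7 and 38.9 CPM in all 24 libraries. In females, Icam1 stood at 28.3, 23.3, 21.7 and 27.3 CPM in WT, 38.9, 35.2, 37.0 and 33.3 CPM in Y665F and 22.0, 28.9, 25.5 and 22.5 CPM in Y665H. In males, Icam1 stood at 32.2, 22.4, 27.8 and 37.3 CPM in WT, 37.8, 38.3, 28.8 and 32.8 CPM in Y665F and 33.9, 27.2, 30.2 and 29.6 CPM in Y665H. Y665F females lay above WT and Y665H females without overlap, while the 3 male groups overlapped. Icam1 fell from 36.1 ± 2.38 to 24.7 ± 3.19 CPM from Y665F to Y665H females (SD, n = 4), for a log2 fold change of -0.40 (SE 0.09, adjusted p 0.0226 in edgeR). The call was lost in 4 of 8 fits with a library left out (edgeR adjusted p 0.0555 to 0.0734, without Y665F female 1 or 2 or Y665H female 1 or 3) and in the fit over all 24 libraries (0.0546).

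Icam2, which resting endothelium and platelets carry, was higher in males than in females within both mutants. In females, Icam2 stood at 9.98, 12.3, 6.32 and 10.9 CPM in WT, 6.56, 7.89, 5.46 and 7.23 CPM in Y665F and 7.05, 7.49, 5.16 and 6.16 CPM in Y665H. In males, Icam2 stood at 12.8, 5.91, 9.47 and 9.43 CPM in WT, 12.8, 15.3, 13.2 and 11.3 CPM in Y665F and 12.3, 12.0, 11.2 and 16.8 CPM in Y665H. All Y665F and Y665H males lay above all females of the same genotype, whereas WT males and females overlapped. In Y665H the same held for Itgb2, Itga4, Itgb7 and Selplg, and in Y665F all males lay below all females for Vcam1. Males and females of a mutant were not tested against each other, and the share over all genes was not computed. The log2 difference of Y665H from WT was -0.60 (SE 0.22, adjusted p 0.140 in edgeR) in females. It was called without WT female 3 (adjusted p 0.0364 in edgeR), in a fit that called 1269 of 15620 genes. The effect of the mutation differed between males and females by 1.20 (SE 0.36, adjusted p 0.133 in edgeR) for Y665F and by 1.06 (SE 0.35, adjusted p 0.175 in edgeR) for Y665H. Neither passed. Both were called without WT male 1, with edgeR adjusted p of 0.0251 and 0.0258, in fits that called 9.84% of all 17129 genes for Y665F and 10.7% for Y665H, and the 3 WT males then left all held epididymis transcripts. The summed endothelial markers ran from 1056 to 1344 CPM in WT, from 780 to 1047 CPM in Y665F and from 1038 to 1149 CPM in Y665H females. In males they ran from 666 to 1446 CPM in WT, from 1084 to 1332 CPM in Y665F and from 1272 to 1417 CPM in Y665H. No endothelial marker was at 0 in any group, and the interaction was above 0 for 10 of 10 of them for both mutations, with a median of 0.73 for Y665F and 0.55 for Y665H and none called. Their part in the Icam2 values was not tested.

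Vcam1, the ligand of the alpha 4 integrins on endothelium and stroma, was called in none of the edgeR fits on the 8 libraries of 2 groups. In females, Vcam1 stood at 34.7, 28.5, 37.0 and 36.6 CPM in WT, 45.8, 32.7, 53.8 and 54.9 CPM in Y665F and 29.8, 33.5, 45.5 and 30.7 CPM in Y665H. In males, Vcam1 stood at 21.2, 12.2, 19.2 and 40.3 CPM in WT, 25.1, 21.2, 26.8 and 27.9 CPM in Y665F and 32.0, 18.1, 22.3 and 32.9 CPM in Y665H. The groups overlapped within each sex. WT male 4, at 40.3 CPM, was above every WT female, and the other 3 WT males were below every WT female. The log2 difference of WT males from WT females was -0.72 (SE 0.30, adjusted p 0.137 in edgeR). It was called without WT male 4, with an edgeR adjusted p of 0.0307, in a fit that called 1471 of 15967 genes.

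Counted together, 6 of the 9 genes were called lower and none higher in Y665H than in Y665F females, beside 17.4% of all 15493 tested genes called in either direction and 8.59% called lower. The median log2 fold change was -1.10 over the 9 genes and -0.03 over all genes. The 4 integrin genes Itgal, Itgb2, Itga4 and Itgb7 were called in 8 of 8 fits with a library left out. Under scaling by library totals the median over all genes moved to -0.18, and 799 of 3205 called genes were higher against 1358 of 2689 with TMM scaling. The groups did not overlap for 6 of the 9 genes, all lower in Y665H, against 21.5% of all genes. The Y665F libraries also served in the comparison that had singled out Itgal, so these counts are not independent of that choice. Leukocyte markers moved with these genes: 10 of 10 pan-leukocyte, 9 of 13 macrophage and dendritic cell, 7 of 8 B cell and 6 of 13 T and NK cell markers were called lower in Y665H, and 6 of 10 skeletal muscle markers were called higher. Their part in the result was not tested.

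In the same comparison in males, 1 of the 9 genes was called, beside 1.03% of 15986 genes in either direction and 0.901% called lower. For 2 of the 9, Itgal and Itgb7, all Y665H lay below all Y665F males, against 6.17% of all genes. DESeq2 called 5, namely Itgal, Itgb2, Itga4, Itgb7 and Selplg, beside 7.05% of 15562 genes, and the median over the 9 genes was -0.65. The fit over all 24 libraries called 2, beside 2.33% of 17157 genes, and the fit without Y665F male 4 called 3, beside 1.36% of 16128. Of the T and NK cell markers, 13 of 13 were lower in log2 difference (median -1.90), 1 of them called, as were 10 of 10 pan-leukocyte markers (median -0.66), also with 1 called. Their part in the result was not tested.

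Against WT males, no member was called in Y665F by edgeR, which called 0% of 16240 genes. An unadjusted edgeR p under 0.05 was found for 4 members, beside 2772 of the 16240 genes. DESeq2 called the same 4, beside 7.01% of 16275 genes: Itgal, Itga4, Itgb7 and Selplg. Those 4 genes were higher in every Y665F than in every WT male, against 5.59% of all genes. Without WT male 1, edgeR called 3 of the 9, Itgal, Itga4 and Itgb7, beside 3.43% of 16632 genes, and in the fit over all 24 libraries it called 4, beside 13.2% of 17157. WT male 1 had an epididymis sum of 0.0576 CPM, against 869 to 8832 CPM in the other 3 WT males. Markers of other cells differed as well: 13 of 13 T and NK cell markers were above 0 in log2 difference (median 1.88, 12 with an unadjusted p under 0.05). So were 13 of 13 macrophage and dendritic cell (median 0.69) and 8 of 8 B cell markers (median 1.19). Of markers of cells other than leukocytes, 10 of 10 endothelial (median 0.31) and 9 of 10 adipocyte markers (median 0.23) were above 0, against 0 of 8 epithelial markers (median -2.04). None of these was called. Their part in the result was not tested. The biological coefficient of variation was 47.2% in this comparison and 26.6% in females, and in simulated data 12% of 2-fold changes were called in males and 57.6% in females. In females, the choice of genes had used this comparison, so that its counts carry no evidence: 4 of the 9 genes were past the threshold in Y665F, beside 3.33% of all 15642 genes in either direction and 2.31% called higher, and 5 of 9 lay above WT without overlap, against 19.9% of genes. The sexes were not shown to differ: no member passed the interaction test for Y665F by edgeR, which called 0% of 16732 genes. Icam2 alone had an unadjusted edgeR p under 0.05, beside 3645 of the 16732 genes. It was also the 1 member called by DESeq2, beside 7.09% of 16651 genes.

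Y665H differed from WT in no member that passed the test. In females, edgeR called 0 of 9 beside 3.34% of 15469 genes, and 4 had an unadjusted p under 0.05 beside 3679 of the 15469 genes. DESeq2 called 1, Itgb2, beside 11.5% of 15242 genes. Itgb2 was also the 1 member of the 9 that lay below WT without overlap, against 6.81% of all genes. The log2 difference was below 0 for 7 of the 9, with a median of -0.34. Over all genes, 49.4% were above 0 and the median was -0.0046. These libraries of WT also served in the comparison that had singled out Itgal. In males, edgeR called 0 of 9 beside 0% of 16406 genes, and 2 had an unadjusted p under 0.05 beside 1874 of the 16406 genes. DESeq2 called 0 beside 0.741% of 16064 genes. The difference was above 0 for 8 of the 9 with a median of 0.18, beside 43.9% of all genes with a median of -0.055. It was also above 0 for 13 of 13 macrophage and dendritic cell, 10 of 10 endothelial and 9 of 10 adipocyte markers, but for 0 of 8 epithelial markers. Their part in the result was not tested. For the interaction of Y665H with sex, edgeR called 0 of 9 beside 0.0119% of 16827 genes, and 4 had an unadjusted p under 0.05 beside 3079 of the 16827 genes. DESeq2 called 0 beside 4.77% of 15226 genes. Without WT male 1, the interaction was called for 3 of the 9 genes, Itga4, Itgae and Icam2, beside 10.7% of 17168 genes. Between WT males and females, edgeR called 0 of 9 beside 13.1% of 15865 genes, and 1 had an unadjusted p under 0.05 beside 5319 of the 15865 genes. DESeq2 called 0 beside 24.5% of 18326 genes. The fit over all 24 libraries called 2, Itgae and Vcam1, beside 34.9% of 17157 genes, a larger share.

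**Figure D3:**
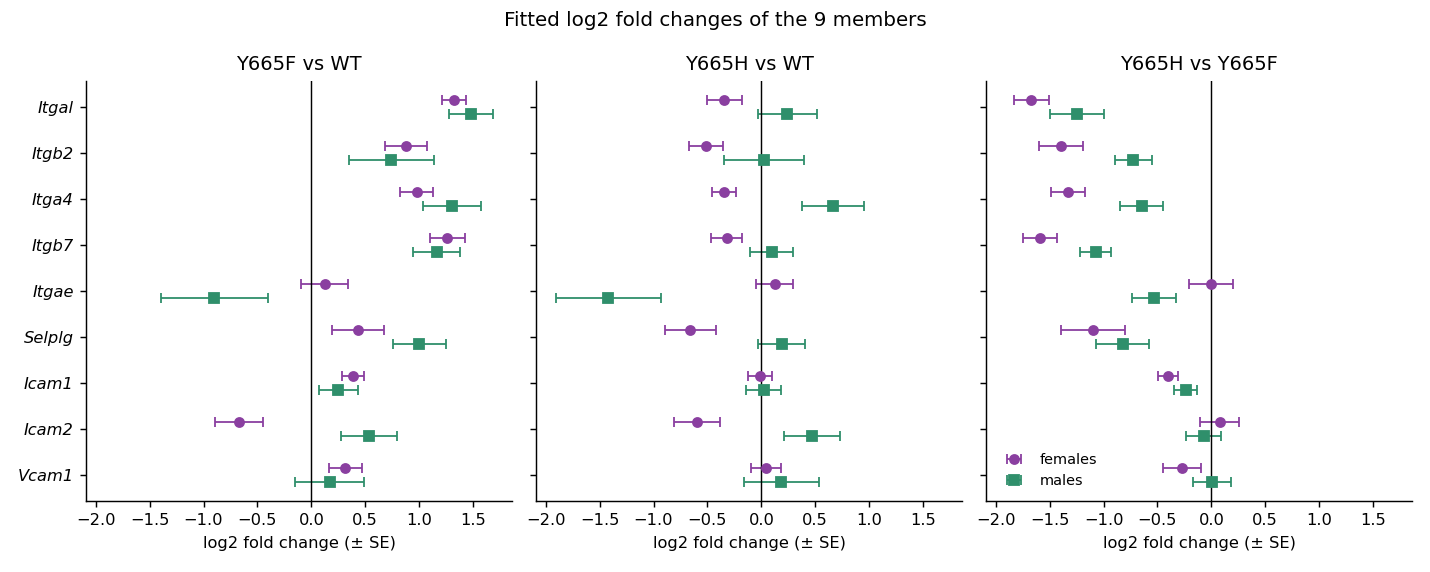
Log2 fold changes of the 9 genes with their standard errors in the comparisons of mutants with WT and with each other, by sex. Itgal, Itgb2, Itga4 and Itgb7 lie below 0 for Y665H against Y665F in females, from -1.67 to -1.33.

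The receptor genes were next set against Ptprc, the gene of the leukocyte surface protein CD45, as the ratio of counts within a library. Ptprc averaged 36.1 CPM in WT, 91.1 CPM in Y665F and 30.0 CPM in Y665H females, and 42.3, 90.5 and 51.7 CPM in males. Itgal per Ptprc was 0.264 ± 0.0416 in WT, 0.289 ± 0.0502 in Y665F and 0.245 ± 0.0380 in Y665H females (SD, n = 4), and the 3 ranges overlapped although the CPM of Y665F did not overlap with the others. Itgb7 per Ptprc likewise averaged 0.287, 0.299 and 0.275. In the same order of female groups, Itga4 per Ptprc averaged 0.597, 0.506 and 0.558, with Y665F below both others without overlap. Itgb2 per Ptprc averaged 0.997, 0.783 and 0.850. Itgae per Ptprc was 0.0735 ± 0.00973 in Y665F and 0.204 ± 0.0173 in Y665H females, with no overlap and a log2 difference of 1.47. Itgae itself was level between these groups, at 6.72 and 6.09 CPM, so this difference mirrors the lower Ptprc of Y665H females. Of 30 exact two-sided permutation tests, 5 gave 0.0286, the smallest p that 4 against 4 libraries allow: this Itgae difference, Itgal in Y665H against Y665F males (-0.43), and Itga4 in Y665H against Y665F females (0.14), Y665H against Y665F males (0.20) and Y665H against WT males (0.35). The lowest Benjamini-Hochberg adjusted p was 0.171, and no ratio was called, which the design nearly fixed, since at least 18 of the 30 tests would have to give the smallest p. With Coro1a, another pan-leukocyte gene, in place of Ptprc, the lowest adjusted p was 0.367. The female means changed with the reference. Per Coro1a, Itga4 averaged 0.676 in WT, 0.684 in Y665F and 0.794 in Y665H females, with overlapping ranges. In the same order, Itgal per Coro1a averaged 0.295, 0.392 and 0.342, and Itgb7 per Coro1a 0.324, 0.403 and 0.379. Between Y665F and WT females, where the ratios were left untested, Selplg per Ptprc averaged 0.224 and 0.395. Itgae per Ptprc averaged 0.0735 and 0.162, with Itgae itself at 6.72 and 5.63 CPM.

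**Figure D4:**
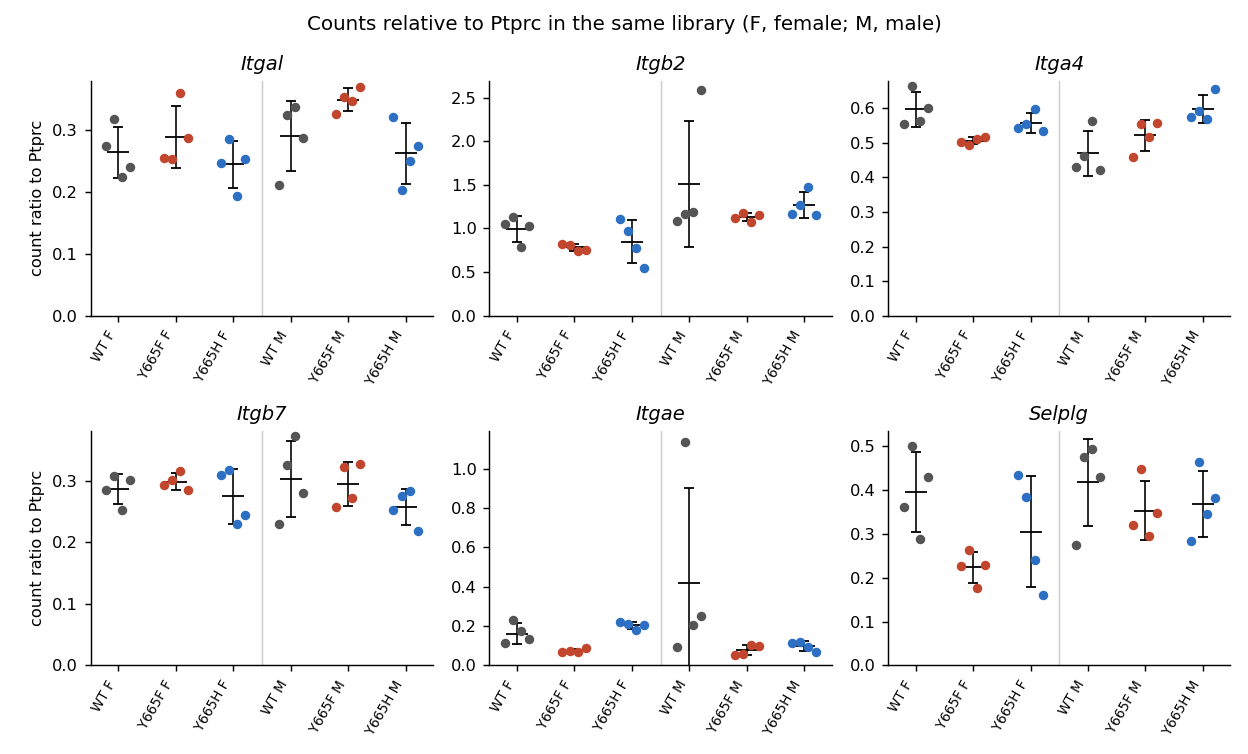
Ratio of the counts of 6 receptor genes to those of Ptprc by group, with 1 point per library and mean ± SD (n = 4). Itgal and Itgb7 ratios to Ptprc are near level across female groups, while Itga4 per Ptprc is lower in Y665F than in WT and Y665H females. With Coro1a as the reference, Itga4 does not show this order, and the Itgal and Itgb7 means are highest in Y665F females. Itgae per Ptprc is 0.0735 in Y665F and 0.204 in Y665H females, a difference that mirrors Ptprc, since Itgae itself is level.

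The rest of the adhesion machinery was read from 5 lists. Integrin activation covers the proteins that open integrins from inside the cell, such as talin and kindlin. Between Y665H and Y665F females, where 17.4% of all genes were called, 9 of its 15 genes were called lower and none higher, with a median log2 fold change of -0.42. Rassf5, which encodes the Rap1 effector RAPL, fell from 17.6 ± 1.43 to 8.68 ± 0.607 CPM (log2 change -0.87, SE 0.09, adjusted p 0.00165 in edgeR), and the adaptor Fyb from 35.0 ± 4.58 to 15.7 ± 1.96 CPM (-1.01, SE 0.11, adjusted p 0.00177 in edgeR), each as mean ± SD with n = 4. Among the other integrin subunits, 2 of 11 tested were called, a share near that of all genes, both lower and both partners of Itgb2. Itgax, the CD11c of dendritic cells and macrophages, fell from 15.7 ± 3.05 to 2.62 ± 0.424 CPM (-2.44, SE 0.19, adjusted p 0.00148 in edgeR), and Itgam, the CD11b of myeloid cells, from 71.0 ± 18.2 to 31.7 ± 5.50 CPM (-1.02, SE 0.21, adjusted p 0.0142 in edgeR).

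Of the selectins and other trafficking ligands, 1 of 16 tested genes was called higher and 2 lower in Y665H than in Y665F females, again a share near the 17.4% of all genes. The higher one was Cd99l2 (0.33, SE 0.06, adjusted p 0.0106 in edgeR). The 2 lower ones encode proteins found on leukocytes: Cd44, the hyaluronan receptor, with a log2 fold change of -1.09 (SE 0.15, adjusted p 0.00306 in edgeR), and Spn, the sialophorin CD43, with -1.41 (SE 0.21, adjusted p 0.00449 in edgeR). Selp, the P-selectin that PSGL-1 binds, averaged 7.42 CPM in WT, 10.9 CPM in Y665F and 7.70 CPM in Y665H females. Madcam1, the mucosal ligand of the alpha 4 beta 7 pair, did not exceed 0.542 CPM in any library. Sele, the E-selectin of activated endothelium, reached 13.8 CPM in Y665F female 3, the library with the high epithelial sum, and at most 1.32 CPM outside Y665F females.

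Selectin ligand glycosylation covers the enzymes that decorate PSGL-1, and 2 of its 10 genes were called higher and 1 lower in the same comparison. The sialyltransferase gene St3gal6 rose from 19.8 ± 4.59 CPM in Y665F to 53.7 ± 17.6 CPM in Y665H females (log2 change 1.59, SE 0.30, adjusted p 0.00998 in edgeR), and Gcnt1, whose enzyme starts the branch that carries the selectin-binding sugar, fell by 0.89 on the log2 scale (SE 0.11, adjusted p 0.00230 in edgeR). The other gene called higher was Tpst1, a tyrosine sulfotransferase gene (0.29, SE 0.08, adjusted p 0.0348 in edgeR). In the fit over all 24 libraries Gcnt1 was not called, with an edgeR adjusted p of 0.247. Of 11 tested genes of the NF-kappaB response, a pathway that induces Icam1 and Vcam1, 4 were called lower and none higher, beside 8.59% of all genes called lower. They were Traf1 (-1.32, SE 0.17, adjusted p 0.00239 in edgeR), Nfkbie (-0.64, SE 0.13, adjusted p 0.0123 in edgeR), Relb (-0.45, SE 0.10, adjusted p 0.0174 in edgeR) and Tnfaip3 (-0.63, SE 0.16, adjusted p 0.0273 in edgeR). Between Y665H and Y665F males, edgeR called none of the genes of the 5 lists. An unadjusted p under 0.05 was found for 2 to 7 genes per list, beside 2879 of all 15986 genes.

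Against WT females, 6 of the 63 tested genes of the lists were called in Y665H, beside 3.34% of all genes. Lower were the NF-kappaB inhibitor Tnfaip3 (-0.92, SE 0.12, adjusted p 0.0141 in edgeR), the integrin-activating exchange factor Rasgrp2 (-0.58, SE 0.08, adjusted p 0.0171 in edgeR), Itgax (-1.12, SE 0.21, adjusted p 0.0304 in edgeR), Itgb5 (-0.46, SE 0.09, adjusted p 0.0320 in edgeR) and Cd44 (-0.91, SE 0.17, adjusted p 0.0303 in edgeR). St3gal6 was higher (1.24, SE 0.27, adjusted p 0.0462 in edgeR). Tnfaip3 was called in 8 of 8 fits with a library left out, and the other 5 in 2 to 4 of 8, so each of those rests on which libraries enter. The same comparison in males gave no edgeR call in these lists. An unadjusted p under 0.05 was found for 0 to 3 genes per list, beside 1874 of all 16406 genes.

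Between WT males and females, where no member was called, 12 of the 65 tested genes of the lists were, 3 of them higher in males, beside 13.1% of all genes. Markers of other tissue moved in this comparison: 6 of 10 stromal and mesothelial (median log2 difference -0.99) and 8 of 10 skeletal muscle markers (median -5.11) were called lower in males, and 2 of 8 epithelial markers were called higher. Their part in the values of the lists was not tested. Lower in males were Podxl (-0.81, SE 0.15, adjusted p 0.0189 in edgeR) and Cd34 (-0.81, SE 0.17, adjusted p 0.0243 in edgeR), sialomucins of endothelium and stroma, Itgb3 (-1.30, SE 0.25, adjusted p 0.0203 in edgeR), St3gal6 (-0.99, SE 0.27, adjusted p 0.0475 in edgeR) and the sulfotransferase gene Chst2 (-0.68, SE 0.17, adjusted p 0.0357 in edgeR). Higher were Itgax (1.68, SE 0.37, adjusted p 0.0282 in edgeR), Birc3 (0.43, SE 0.10, adjusted p 0.0359 in edgeR) and the T cell adaptor gene Skap1 (2.98, SE 0.73, adjusted p 0.0359 in edgeR), which reached 13.0 CPM in WT male 2. None of these 8 kept its call in more than 4 of 8 fits with a library left out.

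Across the 24 libraries, which share the 6 groups, the 4 integrin genes ran together: Spearman's rho between pairs of Itgal, Itgb2, Itga4 and Itgb7 was 0.750 to 0.946. Selplg stood at 0.750 to 0.867 and Icam1 at 0.676 to 0.792 with these 4, whereas Icam2 stood at 0.265 to 0.501, Vcam1 at -0.180 to 0.0539 and Itgae at -0.173 to 0.0139. Among the 14838 genes whose mean over all libraries reached 1 CPM, the genes most like Itgal were Itgb7 (0.946), Wdfy4 (0.943) and Cytip (0.936). For Itgb2 they were Slc11a1 (0.975), Myo1f (0.970) and Cyba (0.969), for Itga4 Ptprc (0.973), Dock2 (0.957) and Lcp2 (0.955), and for Itgb7 Vav1 (0.980), Wdfy4 (0.977) and Spn (0.968). Selplg was most like Unc93b1 (0.964), Laptm5 (0.962) and Fcer1g (0.956). These are mostly genes of haematopoietic cells, such as Vav1 and Dock2, which encode exchange factors of leukocyte signalling. Icam1 was most like Plekho2 (0.843), Dapp1 (0.837) and Aif1 (0.826), and Icam2 was most like Gpr4 (0.928), Eng (0.923) and Git2 (0.917), of which Eng encodes the endothelial protein endoglin. The nearest genes to Vcam1 were Sh2d4b (0.872), Dzip1 (0.856) and Exd2 (0.850), and those to Itgae reached lower values, with 3830408C21Rik (0.659), Pspc1 (0.659) and Gm10069 (0.656).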

How the data were processed

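Per the labels' protocols, ribosomal RNA was removed and stranded libraries were sequenced as read pairs. The authors deposited 1 table of raw counts per gene symbol for each library. FastQC 0.11.9, Trimmomatic 0.36, STAR, SAMtools 1.9, Picard 2.9.2, HTSeq 0.9.1 and the build mm10 are named per the submitters' processing notes, and the annotation and the strand setting are not given in the sources used here. The 5 entries that name no gene (24.8 to 39.7% of a library's counts) entered neither library sizes nor tests. Counts of every pair of libraries of a group differed by more than sampling noise in a chi-square test (at least 16.4 per degree of freedom), so all 24 were kept as separate samples.

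Groups were read from the sample titles. Each pair of groups was tested on its 8 libraries in edgeR 4.0.16 by its quasi-likelihood F test (R 4.3.3, limma 3.58.1), using TMM scaling, the filterByExpr filter and Benjamini-Hochberg adjustment over all tested genes, and interactions were tested on 16 libraries. A gene with an adjusted p under 0.05 was termed called. Ratios to Ptprc were tested with exact permutation tests over libraries. Alternatives were scaling by library totals, DESeq2 1.42.0, no filter, a fit over all 24 libraries, the replicate number as a block and leaving out each library. The fit was tested on simulated data, where 90.9% of 4-fold changes were called among 15490 genes in females and 59% among 16077 genes in males.

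The 9 genes, the 5 further lists and the marker lists were chosen with earlier results of these data known. Text names all 9 genes and, per list and comparison, at most the 2 called genes with the smallest p, besides the 3 genes most like each member by Spearman correlation of TMM-scaled log2 CPM and Ptprc. Cd8a, Cdh1, Gsg2, Selp, Sele, Madcam1, Coro1a, Ccl21a, Cd99l2, Tpst1, Relb and, for Y665H against Y665F females, Tnfaip3 were named after their values were seen. Itga4, Icam1 and Itgb7 were the members in the RefSeq promoter table, and the last bases of the Itgb7 window overlap an annotated exon of GENCODE. Of the listed marker genes, Ighd, Ighm, Ly6g and Trac were not analysed here.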

Additional observations from a re-analysis of the deposited data

Results flagged for a closer look

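Among 90 groups of 4 values checked (9 gene levels and 6 ratios to Ptprc in 6 groups), 2 held a library far from the other 3, where chance alone gives about 1 in 20. Both were ratios to Ptprc in WT males. Itgb2 per Ptprc was 2.59 in WT male 4, against 1.09 to 1.18 in the other 3 WT males. Itgae per Ptprc was 1.13 in WT male 2, the library with the most epididymis transcripts, against 0.0934 to 0.251 in the other 3.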

How the results depend on the processing

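None of the fold changes printed for the 9 genes reversed under the alternatives run. The number of members past the threshold differed from the main count by over 1.5 times as follows, against 4 for Y665F and WT females (a comparison used in choosing the genes, from which nothing is read), 1 for Y665H and Y665F males and 0 for the rest named here. With DESeq2 it was 4 for Y665F and WT males, 1 for Y665H and WT females, 5 for Y665H and Y665F males and 1 for the Y665F interaction. With a fit over all 24 libraries it was 4 for Y665F and WT males, 2 for Y665H and Y665F males and 2 for WT males and females (Itgae and Vcam1), in fits that called 13.2%, 2.33% and 34.9% of all 17157 genes. With a single library left out, it ran from 2 to 4 for Y665F and WT females, from 0 to 3 for Y665F and WT males, from 0 to 1 for Y665H and WT females, from 0 to 3 for Y665H and Y665F males, from 0 to 1 for WT males and females, from 0 to 1 for the Y665F interaction and from 0 to 3 for the Y665H interaction. Without WT male 1, calls over all genes rose from 0 to 570 for Y665F against WT males, from 0 to 1686 for the Y665F interaction and from 2 to 1844 for the Y665H interaction. The 3 calls for Y665H against Y665F males came without Y665F male 4 (Itgal, Itgb2 and Itgb7). The cause was not tested.

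The replicate numbers did not pair the libraries: deviations of same-numbered libraries correlated from -0.456 to 0.769 across comparisons, with both signs. With the replicate block, 0 members were called for Y665H against Y665F males. Over all genes, DESeq2 called 1141 for Y665F against WT males, 1097 for Y665H against Y665F males and 1749 for Y665H against WT females. Library totals in place of TMM moved the median log2 fold change of all genes from 0.02 to 0.15 for Y665F against WT females. For males against females of the WT it moved from 0.04 to 0.22. In these comparisons, 1025 of 1164 and 2111 of 2785 called genes were then higher, against 361 of 521 and 1135 of 2079. The ratio tests could not reach 0.05 with a library left out, since 4 against 3 allows 0.0571 at best in an exact permutation test.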
